A study of Mus musculus with 6 samples.

Results

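Genes of cholesterol synthesis, uptake and efflux were followed in sorted mouse hematopoietic stem and progenitor cells with and without Raptor, the gene Rptor. Raptor is the subunit that defines the kinase complex mTORC1. The 31 genes were listed by function: 18 enzymes of the synthesis pathway, the branch enzyme gene Ggps1, 4 genes that control synthesis, 3 genes of sterol transport, storage and uptake, and 5 genes around the liver X receptors (LXR). A probe set was kept if the annotation named 1 gene only, and each gene was read from its probe set with the highest mean over the 6 arrays. On this rule 28 of the 31 genes were measured, among 18193 genes in all. No kept probe set named Acat2, Soat1 or Nr1h2, whose expression was not analysed here. That left 17 synthesis enzymes and 4 genes of the LXR group.

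All mice were on a C57BL/6 background and carried loxP sites around exon 6 on both Raptor alleles. The 3 arrays called mutant came from mice that also had the MxCre transgene, in which an interferon-responsive promoter drives the recombinase, and the 3 wild type arrays came from mice lacking it. The inducer of interferon given to every mouse was polyinosinic-polycytidylic acid (pIpC), in 3 injections of 15 µg per g body weight over 5 days. Lineage-negative, Flt3-negative cells positive for Sca1 and cKit were sorted 5 weeks later and their RNA was read on single-colour arrays. MxCre is active in many cells that respond to interferon, and whether an array stands for a single animal or for pooled animals is not stated in the labels, nor are age, sex and tissue of origin. The p-values therefore reflect array-to-array spread only, part of which may be technical.

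Cells make cholesterol from acetyl-CoA through mevalonate and farnesyl diphosphate, squalene and then a series of sterols. When sterols are scarce in the endoplasmic reticulum, the escort protein Scap carries the transcription factor SREBP2, the product of Srebf2, to the Golgi for cleavage. Its nuclear fragment then switches on the genes of synthesis and uptake, while the Insig proteins hold Scap back when sterols are plentiful. When sterols accumulate, oxysterols activate the LXR receptors, which switch on the exporters Abca1 and Abcg1 and the ubiquitin ligase gene Mylip. mTORC1 is known to promote SREBP activity in several cell types.

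Promoters are shown for the members with the smallest p among those with an entry in the RefSeq table (GRCm38.p6), each from 250 bases before to 50 bases after the gene start. Hmgcs1 was added after its sequence had been seen, because it alone held letters of the sterol regulatory element. Letters in capitals are matches, on either strand, to TCACCCCAC or TCACGCCAC (forms of the sterol regulatory element that SREBP binds), to CCAAT (the box bound by NF-Y) or to GGGCGG (the box bound by Sp1). NF-Y and Sp1 are known partners of SREBP at many such promoters.
Insig1 (chr5:28071162-28071461, plus strand): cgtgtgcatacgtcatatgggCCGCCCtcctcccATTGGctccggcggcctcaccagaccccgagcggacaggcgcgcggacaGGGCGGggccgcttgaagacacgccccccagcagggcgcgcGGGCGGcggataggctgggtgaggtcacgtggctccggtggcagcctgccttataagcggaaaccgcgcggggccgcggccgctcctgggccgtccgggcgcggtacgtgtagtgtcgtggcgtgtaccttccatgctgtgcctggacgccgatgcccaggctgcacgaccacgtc
Msmo1 (chr8:64733529-64733828, minus strand): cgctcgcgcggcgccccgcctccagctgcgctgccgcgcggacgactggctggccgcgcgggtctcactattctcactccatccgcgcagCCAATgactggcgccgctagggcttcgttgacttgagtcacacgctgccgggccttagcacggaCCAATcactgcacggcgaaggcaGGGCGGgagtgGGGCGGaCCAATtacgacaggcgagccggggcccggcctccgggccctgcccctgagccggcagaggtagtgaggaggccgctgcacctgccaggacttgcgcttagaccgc
Idi1 (chr13:8885356-8885655, plus strand): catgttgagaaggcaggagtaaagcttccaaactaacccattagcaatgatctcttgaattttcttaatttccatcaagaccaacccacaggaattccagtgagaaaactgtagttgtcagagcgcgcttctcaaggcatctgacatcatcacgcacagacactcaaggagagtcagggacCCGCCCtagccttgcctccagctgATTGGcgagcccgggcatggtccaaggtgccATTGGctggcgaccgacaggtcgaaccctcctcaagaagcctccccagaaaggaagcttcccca
Hmgcs1 (chr13:119690101-119690400, plus strand): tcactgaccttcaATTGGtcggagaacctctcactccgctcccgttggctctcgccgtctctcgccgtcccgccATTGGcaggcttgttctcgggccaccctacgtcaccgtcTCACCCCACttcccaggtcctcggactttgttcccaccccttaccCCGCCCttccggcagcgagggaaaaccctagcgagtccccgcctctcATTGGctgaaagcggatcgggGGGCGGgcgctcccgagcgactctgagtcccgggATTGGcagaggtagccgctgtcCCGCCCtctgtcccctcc
The Insig1 window held 1 CCAAT and 3 GGGCGG matches, the Msmo1 window 3 and 2, and the Idi1 window 2 and 1. The Hmgcs1 window held 4 CCAAT and 3 GGGCGG matches and 1 match to TCACCCCAC. No capitals of different motifs overlapped in these windows.

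Across the pathway the promoter letters were common. Of 15 listed synthesis enzymes with an entry, 14 (93.3%) held CCAAT and 14 (93.3%) held GGGCGG in at least 1 window. The shares were 42% and 57.3% of the 14452 genes measured on the arrays that have an entry. Acat2, which the arrays did not measure, is among the 15 and held GGGCGG but no CCAAT. The TCACCCCAC letters were found in 1 of these 15 enzymes and in 0.678% of the measured genes, and TCACGCCAC in 0 of 15 and in 0.173%. Over all 32851 windows of this length the shares were 37.4% for CCAAT, 35.7% for GGGCGG, 0.551% for TCACCCCAC and 0.119% for TCACGCCAC. A match is a run of letters and not a measured binding site, and a window without one says nothing of the factor.

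Before the members are described, some facts about the arrays bear on them. Array medians lay between 6.85 and 6.94 (log2 intensity), and pairs of mutant arrays had a correlation across probe sets of 0.985 to 0.988, against 0.957 to 0.967 for pairs of wild type arrays. Wild type array 1 stood closer to the mutant arrays (0.977 to 0.984) than to the other wild type arrays (0.962 and 0.967). Wild type arrays 2 and 3 carried Y-linked signal (Kdm5d at 10.55 and 9.53) while the other 4 arrays did not (3.60 to 3.88), so each member's log2 fold change is also given against wild type array 1 alone. The ratio of the 3' to the 5' Gapdh control probe set was 3.98, 3.04 and 2.88 on wild type arrays 1 to 3 and 2.87, 2.53 and 2.51 on mutant arrays 1 to 3. The brightest Rptor probe set read 8.57, 8.17 and 7.59 in wild type and 8.68, 7.99 and 8.33 in mutant arrays. Where it lies relative to exon 6 was not analysed, so it checks neither the deletion nor the labels.

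Markers of other cells also differed between the groups. Of all genes, 7.98% were lower and 8.08% higher in mutant arrays without overlap. The summed intensity of 7 neutrophil markers ran from 18101 to 26722 in wild type and from 1818 to 5553 in mutant arrays. Of these markers 6 of 7 were lower without overlap, and only Camp passed, at -3.81 (log2, adjusted p 0.030 in limma). For 12 macrophage and dendritic markers the sums were 1663 to 1791 and 3756 to 7941, with 6 of 12 higher without overlap: C1qb by 2.57, H2-Aa by 2.13, Cd74 by 1.90, Cd68 by 1.498, Csf1r by 1.39 and C1qc by 0.58 (log2), none with an adjusted p under 0.05 in limma. The other 6, among them Adgre1 at 4.26 to 5.11 (log2), overlapped. For 7 mast cell and basophil markers they were 6145 to 7544 and 8994 to 12706, with 4 of 7 higher without overlap. For 4 megakaryocyte markers they were 4009 to 4346 and 1544 to 2567, with 3 of 4 lower without overlap. T and NK cell sums were 1916 to 2599 and 2896 to 3925, but only Gzmb differed without overlap, rising by 4.21 (log2, adjusted p 0.013 in limma). The other 6 of 7 overlapped, among them Cd3e at -0.46, Cd4 at -0.27 and Cd8a at -0.19, and the list's median was 0.03. B cell sums were 438 to 584 and 327 to 432, and erythroid sums 1284 to 3890 and 2238 to 5397. Among 8 measured stem and progenitor genes, Kit stood at 10.71 to 11.17 and Cd34 at 11.51 to 11.87 over the 6 arrays. Without overlap, 4 of 8 were lower in mutant arrays. Tek fell by 1.48 (log2, adjusted p 0.030 in limma), and Mecom gave -0.996, Procr -0.86 and Hlf -0.81, with adjusted p of 0.12 to 0.16 in limma. Flt3, whose protein the sort selected against, read 9.51 to 10.79, and Ly6a, the gene of Sca1, was not analysed here. RMA intensities are never 0, so no marker was at 0. The part of these cells in the results below was not tested, and in RNA from bulk cells fewer cells of a type and less RNA per cell cannot be told apart.

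Of 17 enzymes of cholesterol synthesis, 16 had a log2 fold change below 0 between Raptor mutant and wild type cells, with a median of -0.25, where 59.6% of all genes lay below 0 with a median of -0.07. Most single enzymes did not differ beyond the spread between arrays: 3 of 17 were lower at an unadjusted p under 0.05, 0 were higher and 14 did not pass. Insig1, a sterol-responsive brake on the pathway, and the enzyme genes Msmo1, Idi1 and Sqle had the smallest p among the members, with levels 1.57-fold to 2.11-fold lower. No member reached an adjusted p under 0.05 in limma, a threshold that 20 genes or 0.11% of all genes passed. At an unadjusted p under 0.05, 4 of 28 members (14.3%) were lower, against 4.24% of all genes, and 1 of 28 (3.57%) was higher, against 5.81%. The values of the 3 mutant arrays all lay below those of the 3 wild type arrays for 7 members (25%), against 7.98% of all genes, and all above for 1 member, against 8.08%.

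**Figure D1:**
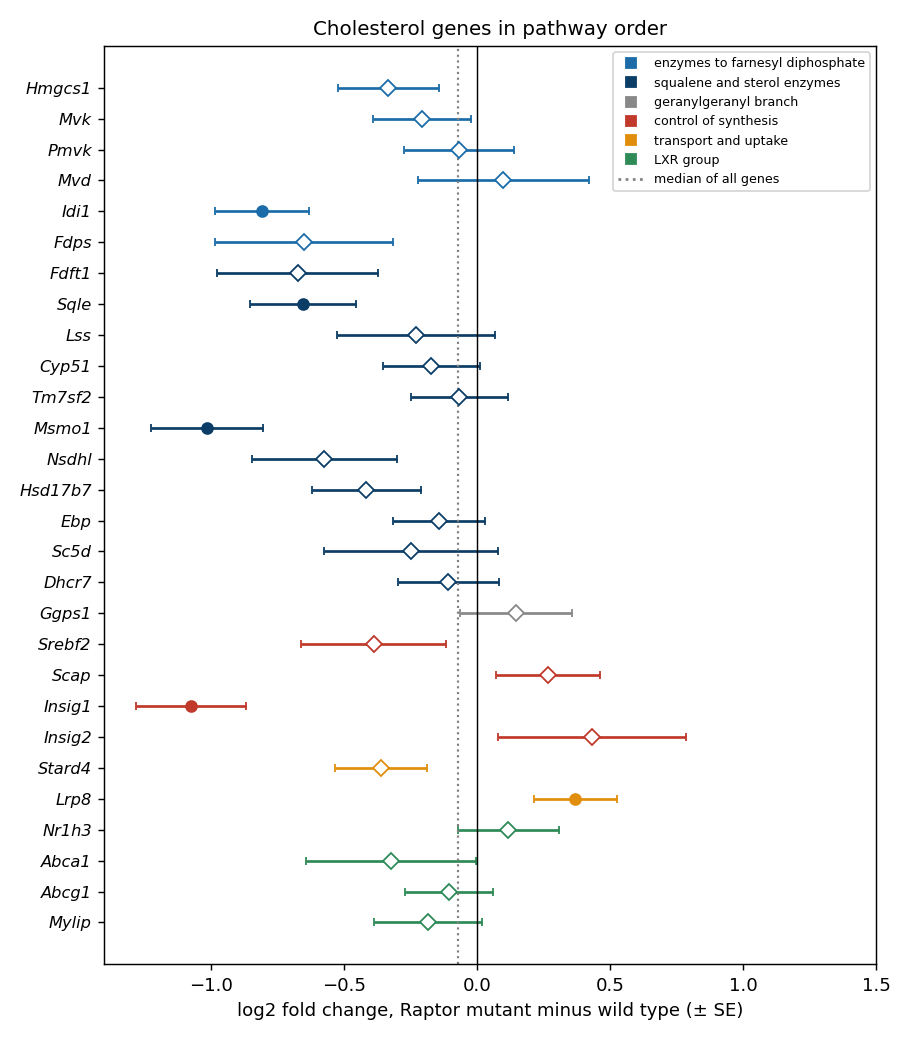
Log2 fold change (mutant minus wild type, 3 arrays each, ± SE) of the 28 measured members in pathway order, with filled circles for an unadjusted p under 0.05 and open diamonds for the others. Sterol enzymes all lie left of 0, Insig1 and Msmo1 lie farthest left at -1.08 and -1.01, and the LXR group runs from -0.32 for Abca1 to 0.12 for Nr1h3.

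Insig1 encodes a membrane protein that retains Scap in the endoplasmic reticulum. Its log2 intensity was 10.16, 10.53 and 10.22 on wild type arrays 1 to 3 and 9.29, 8.90 and 9.50 on mutant arrays 1 to 3. Every mutant array was below every wild type array, by at least the gap between 10.16 and 9.50. The log2 fold change was -1.08 ± 0.21 (SE), or 2.11-fold lower, with an adjusted p of 0.147 in limma. Against wild type array 1 alone it was -0.93. The single Insig1 probe set leaves no second reading of the gene.

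Insig2, the related protein whose gene is not a strong SREBP target, did not follow Insig1. Its brightest probe set read 8.98, 9.10 and 7.94 in wild type and 8.98, 8.72 and 9.61 in mutant arrays, so the groups overlapped. The log2 fold change was 0.43 ± 0.35 (SE), with an adjusted p of 0.67 in limma, and 0.13 against wild type array 1 alone. The other 2 Insig2 probe sets gave -0.36 and -0.06, so the direction depended on the probe set.

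The transcription factor and its escort were less clear. Srebf2 read 9.63, 8.74 and 9.77 in wild type and 9.08, 8.98 and 8.91 in mutant arrays. Wild type array 2 lay below all mutant arrays and the other 2 wild type arrays above them. Its log2 fold change was -0.39 ± 0.27 (SE), with an adjusted p of 0.65 in limma, and -0.64 against wild type array 1 alone. The dimmer Srebf2 probe set gave -0.66 with groups that did not overlap. Scap read 9.43, 9.09 and 8.82 in wild type and 9.34, 9.27 and 9.52 in mutant arrays, with a log2 fold change of 0.27 ± 0.20 (SE) and an adjusted p of 0.65 in limma. The groups overlapped for Scap, and against wild type array 1 alone the value was -0.05.

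Among the 6 measured early enzymes, which lead to farnesyl diphosphate, 5 had a log2 fold change below 0 and the median was -0.27. Idi1, the isomerase that makes dimethylallyl diphosphate, stood apart from the others. It read 10.57, 10.67 and 10.38 in wild type and 9.98, 9.64 and 9.58 in mutant arrays, and the groups did not overlap. Its log2 fold change was -0.81 ± 0.18 (SE), or 1.75-fold lower, with an adjusted p of 0.178 in limma. Against wild type array 1 alone the value was -0.84. The second Idi1 probe set gave -0.54 ± 0.16, again with no overlap.

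Fdps, the farnesyl diphosphate synthase that follows Idi1, ran from 8.21 to 9.43 in wild type and from 7.77 to 8.18 in mutant arrays. The groups were apart by a narrow margin and wild type array 3 alone was high, so that the log2 fold change of -0.65 ± 0.33 (SE) became -0.25 without that array and -0.23 against wild type array 1 alone. Hmgcs1, the synthase that makes HMG-CoA, read between 11.27 and 11.66 in wild type and between 10.94 and 11.40 in mutant arrays, with a log2 fold change of -0.33 ± 0.19 (SE), and -0.10 against wild type array 1 alone. Mvk, mevalonate kinase, gave -0.21, and Pmvk, the kinase after it, gave -0.07, and against that array they gave 0.0502 and -0.16. Mvd, the decarboxylase, was the only enzyme above 0, at 0.10 ± 0.32 (SE), and its wild type arrays ranged from 6.36 to 7.74 while the mutant arrays stayed between 7.20 and 7.25. Against wild type array 1 alone Mvd gave -0.045.

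All 11 sterol enzymes, from squalene onwards, had a log2 fold change below 0, with a median of -0.25 and a range of -1.01 to -0.07. For 4 of them (36.4%) the mutant arrays lay below the wild type arrays without overlap, against 7.98% of all genes. Msmo1, the methyl sterol oxidase that removes methyl groups from lanosterol products, read 7.89, 8.19 and 8.18 in wild type and 7.44, 7.02 and 6.77 in mutant arrays, with no overlap. The log2 fold change was -1.01 ± 0.21 (SE), or 2.02-fold lower, with an adjusted p of 0.160 in limma, and -0.82 against wild type array 1 alone. A dimmer Msmo1 probe set gave -0.45 ± 0.38 with overlapping groups.

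Sqle, squalene epoxidase, the oxygen-requiring step regarded as a control point of the sterol branch, read 8.86, 9.19 and 9.12 in wild type and 8.40, 8.10 and 8.69 in mutant arrays. Mutant array 3 came closest to wild type array 1, and the groups did not overlap. The log2 fold change was -0.66 ± 0.20 (SE), or 1.57-fold lower, with an adjusted p of 0.34 in limma, and it was -0.46 against wild type array 1 alone. Its unadjusted p missed the 0.05 threshold in that comparison, without mutant array 2 and when Y-linked signal was a covariate.

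Fdft1, squalene synthase, ran from 8.88 to 9.50 in wild type and from 7.80 to 8.81 in mutant arrays, and Hsd17b7, a sterol ketoreductase, from 8.47 to 9.06 and from 8.10 to 8.43. Both pairs of groups were apart by narrow margins, with log2 fold changes of -0.67 ± 0.30 and -0.42 ± 0.20 (SE). Without mutant array 3 the Fdft1 value was -0.36, and without wild type array 3 the Hsd17b7 value was -0.23. Against wild type array 1 alone they were -0.46 and -0.20. The dimmer Hsd17b7 probe sets gave -0.04, 0.15 and -0.21, all with overlapping groups. Those of Fdft1 gave -0.43, -0.31 and -0.38, only the last with groups apart. Nsdhl, a sterol dehydrogenase encoded on the X chromosome, read 8.64, 7.74 and 8.01 in wild type and 7.69, 7.80 and 7.18 in mutant arrays. Wild type array 1 was the highest, so the log2 fold change of -0.57 ± 0.27 (SE) was -1.08 against that array alone.

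The remaining sterol enzymes did not differ beyond the spread between arrays. Lss (lanosterol synthase) gave -0.23, Sc5d (sterol desaturase) -0.25, Cyp51 (lanosterol demethylase) -0.17, Ebp (sterol isomerase) -0.14, Dhcr7 (the last reductase of the pathway) -0.11 and Tm7sf2 (sterol reductase) -0.07, with SE of 0.17 to 0.33. Against wild type array 1 alone the same genes, in that order, gave 0.13, -0.24, -0.31, -0.10, 0.18 and -0.097. Cyp51 depended on the probe set: its brightest one gave -0.17 ± 0.19 with overlapping groups when every probe set was tested as its own row, and its other 2 gave -0.46 ± 0.15 and -0.47 ± 0.17 with groups apart. These 6 genes had adjusted p of 0.73 to 0.89 in limma.

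**Figure D2:**
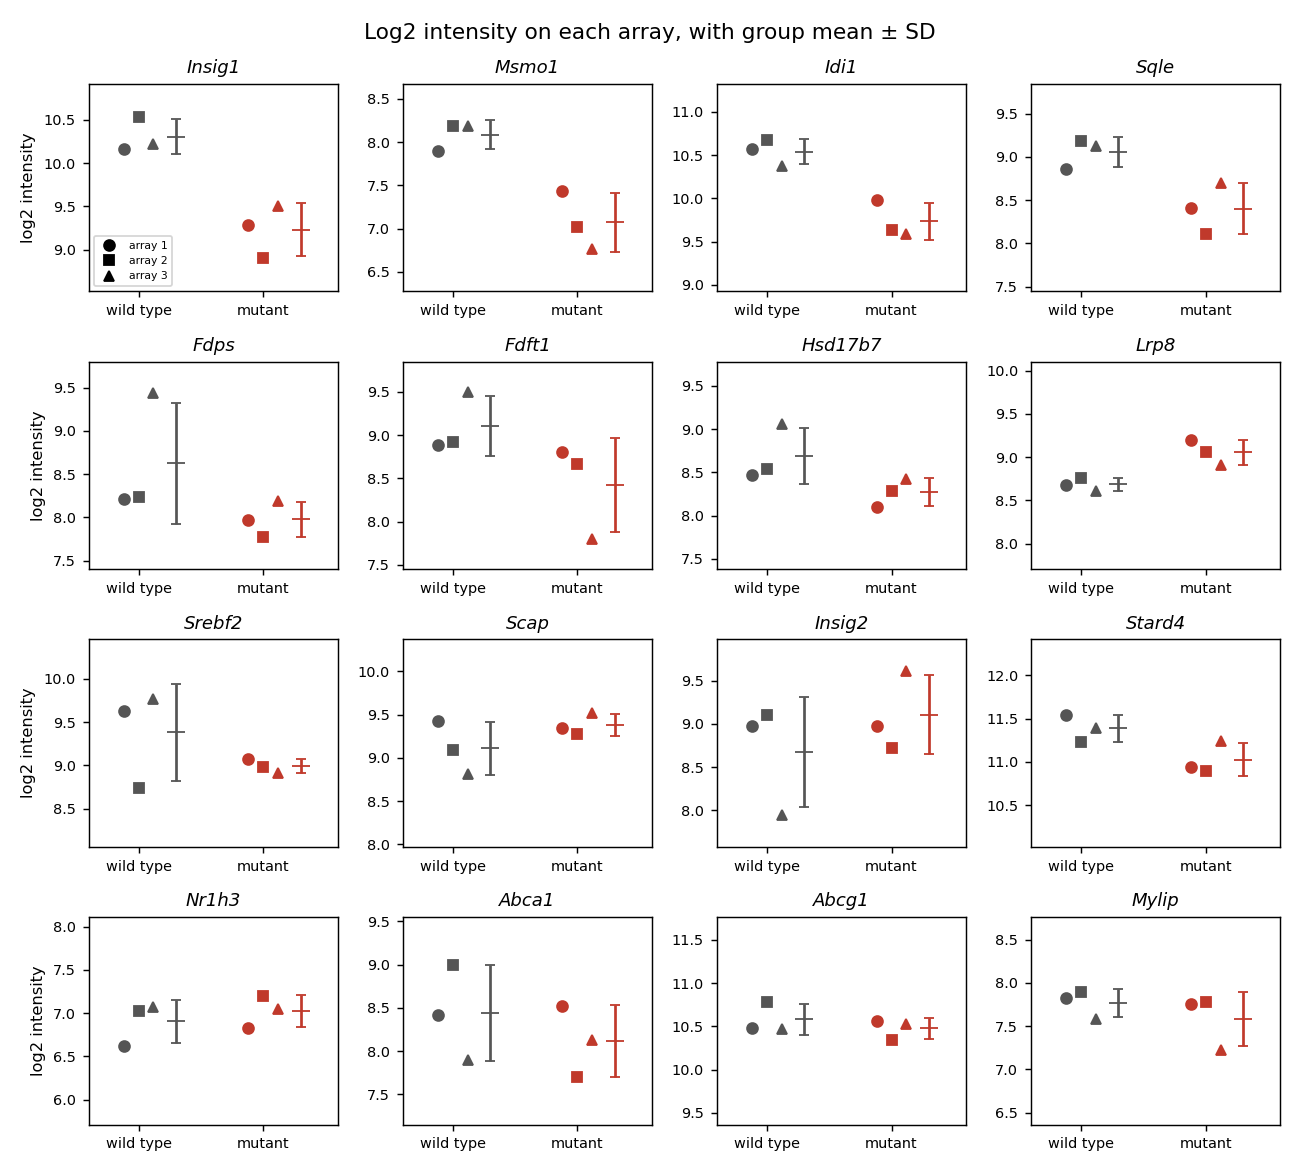
Log2 intensity of 16 members on each array (circle, square and triangle for arrays 1, 2 and 3), with the group mean ± SD (n = 3) at the right of each group and axes of equal height in every panel. The groups are apart for Insig1, Msmo1, Idi1, Sqle, Fdps, Fdft1, Hsd17b7 and Lrp8, and overlap for the other 8 genes shown.

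Mutant arrays had the smaller median SD, but less clearly so among the members than among all genes. The SD was larger in wild type for 17 of 28 members and 10 of 17 enzymes, against 13782 of 18193 genes. In the LXR group the median SD was 0.212 in wild type and 0.248 in mutant arrays. Even so, 3 of its 4 genes varied more in wild type arrays. Insig1 (0.20 and 0.30), Msmo1 (0.17 and 0.34), Idi1 (0.15 and 0.21) and Sqle (0.17 and 0.30) varied more in mutant arrays. The median SD over the 17 enzymes was 0.274 in wild type and 0.209 in mutant arrays, and over all genes 0.286 and 0.158. Of the 17 enzymes, 9 were highest on wild type array 2 and 6 on wild type array 3. Mutant arrays 2 and 3 were each the lowest for 5 enzymes, wild type array 2 for 3, mutant array 1 for 2 and wild type arrays 1 and 3 for 1 each. The highest values came mostly from the 2 wild type arrays with Y-linked signal. Against wild type array 1 alone, 14 of 17 enzymes were below 0 with a median of -0.20, where the median of all genes was 0.04.

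Where farnesyl diphosphate leaves the sterol path, the branch enzyme gene Ggps1, which makes geranylgeranyl diphosphate for protein prenylation, did not follow the sterol enzymes. Its values ran from 9.19 to 9.80 in wild type and from 9.44 to 9.89 in mutant arrays, with a log2 fold change of 0.15 ± 0.21 (SE), and 0.086 against wild type array 1 alone. All 4 Ggps1 probe sets were above 0, at 0.14 to 0.42. Genes that use isoprenoids were described from a list of 14, of which 13 were measured. Their median was 0.22, against -0.07 for all genes. They ran from -0.55 to 0.66, and 4 of 13 (30.8%) were below 0, against 59.6% of all genes. The groups were apart and higher for 5, against 8.08% of all genes, and apart and lower for 0, against 7.98%. At an unadjusted p under 0.05, 3 (23.1%) were higher, against 5.81% of all genes. At that threshold 0 were lower, against 4.24%, and 10 did not pass. The 3 were Rabggtb, a subunit of the Rab prenyl transferase, at 0.54 ± 0.17 (SE), Icmt, which methylates prenylated proteins, at 0.57 ± 0.18, and Dhdds, a subunit of the enzyme that makes dolichol precursors, at 0.55 ± 0.18. Their adjusted p in limma were 0.34, 0.35 and 0.37.

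Stard4, a carrier that moves cholesterol between membranes and is a known SREBP target, ran from 11.23 to 11.54 in wild type and from 10.89 to 11.24 in mutant arrays. The groups overlapped by the thinnest margin, and the log2 fold change was -0.36 ± 0.17 (SE), with an adjusted p of 0.54 in limma, and -0.52 against wild type array 1 alone. Its other 2 probe sets gave -0.23 and -0.13.

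Lrp8, a lipoprotein receptor of the LDL receptor family, was the only member that was higher with groups apart. It read 8.68, 8.76 and 8.61 in wild type and 9.20, 9.06 and 8.91 in mutant arrays. The log2 fold change was 0.37 ± 0.15 (SE), with an adjusted p of 0.49 in limma, and 0.37 against wild type array 1 alone. The other 2 Lrp8 probe sets gave 0.27 each, with overlapping groups. Its unadjusted p passed 0.05 in 2 of 18 alternative settings.

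In the LXR group, 0 of 4 genes passed an unadjusted p under 0.05 and the groups overlapped for all 4, with log2 fold changes of a size found among the synthesis enzymes too. Abca1, the exporter that loads cholesterol onto apolipoprotein particles, read 8.42, 8.997 and 7.89 in wild type and 8.52, 7.70 and 8.13 in mutant arrays. Abcg1, the exporter to mature lipoprotein particles, read 10.49, 10.78 and 10.47 in wild type and 10.56, 10.34 and 10.53 in mutant arrays. The groups overlapped for both, with log2 fold changes of -0.32 ± 0.32 and -0.10 ± 0.16 (SE), and of -0.31 and -0.010 against wild type array 1 alone. These values are of the brightest probe sets. The second Abcg1 probe set gave -0.90 ± 0.25 (SE) with groups apart, and the dimmer Abca1 probe sets -0.67 and -0.38 with overlapping groups.

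Mylip, the ligase that marks lipoprotein receptors for degradation, read 7.83, 7.89 and 7.59 in wild type and 7.76, 7.78 and 7.22 in mutant arrays. Nr1h3, the gene of LXR alpha, read 6.62, 7.03 and 7.07 in wild type and 6.83, 7.19 and 7.05 in mutant arrays. Both pairs of groups overlapped, with log2 fold changes of -0.18 ± 0.20 and 0.12 ± 0.19 (SE), and of -0.24 and 0.40 against wild type array 1 alone. The 95% intervals of the 4 differences in limma were -1.06 to 0.42 for Abca1, -0.49 to 0.28 for Abcg1, -0.65 to 0.29 for Mylip and -0.32 to 0.56 for Nr1h3, with adjusted p of 0.71 to 0.82. These intervals include changes as large as the median of the synthesis enzymes, so the data do not show that the LXR group was unaltered.

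Set side by side, the synthesis enzymes had a median log2 fold change of -0.25 and the LXR group one of -0.14, a difference of -0.10. As the mean deviation from each gene's 6-array mean, the enzymes stood at 0.10, 0.13 and 0.32 on wild type arrays 1 to 3 and at -0.13, -0.18 and -0.24 on mutant arrays 1 to 3. The LXR group stood at -0.02, 0.31 and -0.11 in wild type and at 0.05, -0.11 and -0.13 in mutant arrays. The enzymes separated the groups and the LXR genes did not. The enzymes minus the LXR group gave 0.12, -0.18 and 0.43 in wild type and -0.19, -0.07 and -0.11 in mutant arrays, which overlap, so a difference between the pathways was not larger than the spread between arrays. With the mean of each gene's probe sets the difference of medians turned to 0.18. It also rested on single arrays: it was -0.03 without wild type array 3 and -0.26 without wild type array 2, where the LXR median was -0.22 and -0.02.

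**Figure D3:**
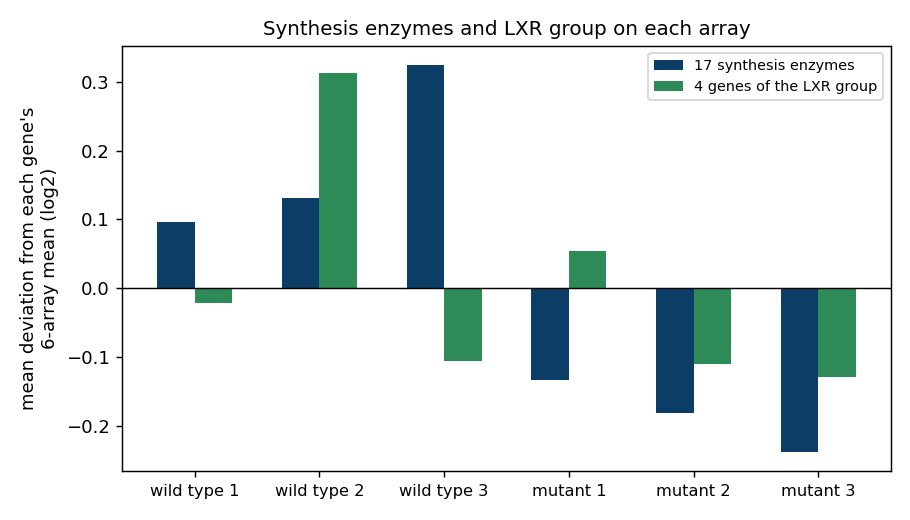
Mean deviation (log2) of 17 synthesis enzymes and 4 LXR group genes from each gene's mean over the 6 arrays, for each array. The enzymes are above 0 on all wild type and below 0 on all mutant arrays, while the LXR genes range from -0.11 to 0.31 in wild type and from -0.13 to 0.05 in mutant arrays.

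With probe set means both medians moved, to -0.14 for the synthesis enzymes and -0.32 for the LXR group. The second Abcg1 probe set read lower in mutant arrays, with a log2 fold change of -0.90 ± 0.25 (SE) and groups apart, where the brightest one gave -0.10. The other 2 Abca1 probe sets gave -0.67 and -0.38. In all, 63 probe sets named a member, and of the 19 members with more than 1, 11 had probe sets of the same sign and 8 did not. For the synthesis enzymes 32 of 38 probe sets were below 0, against 56.4% of all 34945 probe sets. Of the 38, 11 were lower with groups apart, against 7.2% of all probe sets, and 0 were higher with groups apart, against 8.38%. Probe sets of 1 gene are not independent readings.

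**Figure D4:**
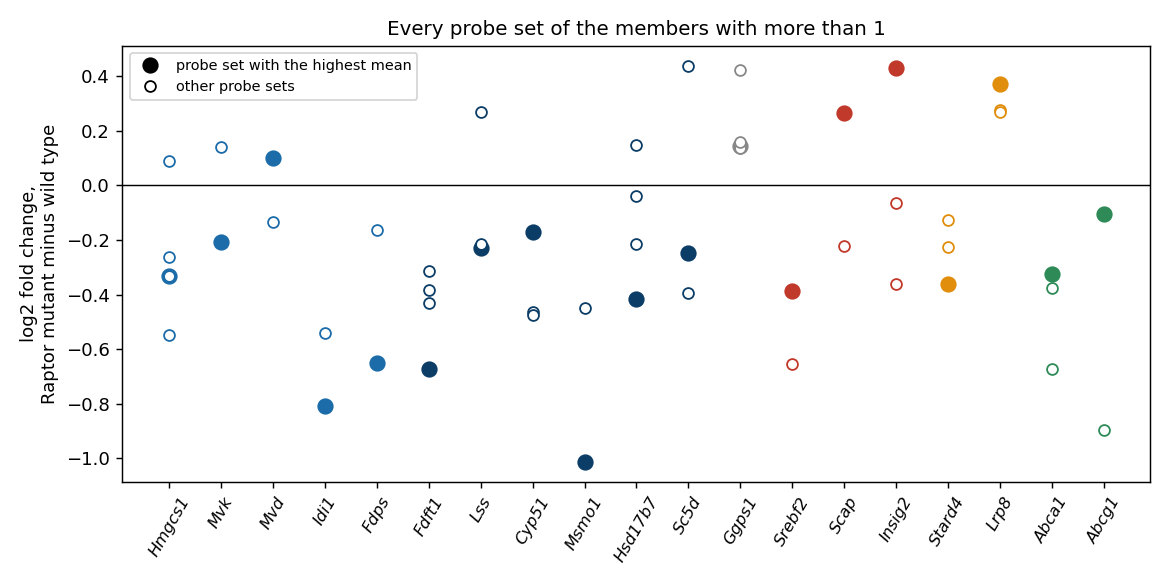
Log2 fold change (mutant minus wild type) of every probe set of the 19 members that have more than 1, with the probe set of the highest mean filled and the others open. Abcg1 spans -0.90 to -0.10 and Insig2 -0.36 to 0.43, while the 2 Idi1 probe sets lie at -0.81 and -0.54.

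Further genes of sterol biology gave no common direction. Of 9 measured genes that process or degrade pathway proteins in the endoplasmic reticulum and Golgi, among them Srebf1 at 0.02, Mbtps1 at 0.16 and Mbtps2 at 0.32, 0 passed an unadjusted p under 0.05, and their median was 0.00. Of 18 genes of sterol handling, 2 (11.1%) were higher and 2 (11.1%) lower at that threshold, against 5.81% and 4.24% of all genes. The other 14 did not pass, and the median was 0.02. Osbp, an oxysterol-binding protein, gave 0.63 ± 0.23 (SE) and the lipid transfer protein gene Pltp, a known LXR target, 0.46 ± 0.16. Gramd1a, which carries cholesterol from the plasma membrane to the endoplasmic reticulum, gave -0.63 ± 0.15, and the transporter gene Abca7 gave -0.66 ± 0.23. The lowest adjusted p of these 4 in limma was 0.23, for Gramd1a.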

How the data were processed

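RNA of 3 wild type and 3 Raptor mutant samples was measured on 6 arrays. The values deposited by the authors are linear intensities (7.6 to 33795), 1 for each probe set on each array. The submitters' processing notes name RMA, with no version or settings. RMA adjusts background and normalizes across arrays, so a shift shared by most genes would be removed. The deposited intensities were turned into log2 values here. Of 45101 probe sets, 64 were controls, 9160 named no gene, 932 named several and 34945 named 1 gene, from an annotation table that can be old. The brightest probe set stood for each of 18193 genes.

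The test was that of limma 3.58.1 under R 4.3.3 (eBayes after lmFit, no covariate, no filter on dim genes), two-sided, with Benjamini-Hochberg adjustment over all genes and a threshold of 0.05. Errors are SE for log2 fold changes and SD otherwise. The script was tested on simulated data. The members, gene lists, motifs and tests were chosen with earlier results of these data known, so list counts are descriptions with no test of their own. No pair of arrays shared more than 99 identical values, and array number limits the precision. Values of each array are given for members with an unadjusted p under 0.05, for Srebf2, Scap and Insig2 and for the LXR group. Those of Nsdhl, ranges of other members, and Srebf1, Mbtps1, Mbtps2 and the single markers named were added after values were seen. Other pathway genes are named at an unadjusted p under 0.05. Alternatives were the replicate block, 3 other scalings, 2 treatments of probe sets, 2 filters on dim genes, 2 variance models, Y-linked signal (mean of Eif2s3y and Kdm5d) as a covariate, an adjusted p under 0.10 and leaving out each array. Leaving out both wild type arrays with Y-linked signal was added after the data were examined.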

Additional observations from a re-analysis of the deposited data

How the results depend on the processing

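In all 18 alternative fits 0 members were called by limma. Insig1, Msmo1 and Idi1 kept an unadjusted p under 0.05 in 18 of 18, and Sqle in 15. Insig1 ranged from -1.21 to -0.91, Msmo1 from -1.195 to -0.73 and Idi1 from -0.93 to -0.67. The genes called over the whole table numbered 20, against 12 with each probe set tested separately, 40 with trend and robust fitting, 8 with array weights, 0 with the Y covariate and 0 without both arrays with Y-linked signal (1149 and 1729 at an unadjusted p under 0.05), 49 at an adjusted p under 0.10, and 5 to 31 when arrays were left out singly (5 without wild type array 3, 31 without wild type array 1, 10 and 9 without mutant arrays 1 and 3). Without both arrays the lone wild type array is assumed to vary like the mutants.

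Members lower at an unadjusted p under 0.05 numbered 4, against 8 with probe set means and 3 to 7 when arrays were left out (7 without wild type array 2). The share of all genes lower at that threshold was 4.24% in the main fit, 4.46% with probe set means and 4.06% without wild type array 2. It was 2.47% without mutant array 3 and 13.2% without wild type array 1, where 4 and 6 members were lower. The 1 higher member, Lrp8, became 0 with centring on the median, quantile normalization, cyclic loess, probe set means, the lower 25% of genes left out, trend and robust fitting, array weights, the Y covariate and both Y-signal arrays left out, and 0 to 1 when arrays were left out singly, where the 1, without wild type array 1, was Scap and not Lrp8. With probe set means the medians were -0.14 for synthesis, -0.32 for the LXR group and 0.18 for their difference, and array weights gave a synthesis median of -0.37. With arrays left out singly the synthesis median ranged from -0.33 to -0.25, the LXR median from -0.22 to -0.02 and the difference from -0.26 to -0.03. Leaving out wild type array 1 gave a difference of -0.18, and mutant arrays 1, 2 and 3 gave -0.059, -0.25 and -0.21. The cause was not tested.

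Signs turned for 10 members, all with main values between -0.25 and 0.27. With the Y covariate and without both Y-signal arrays they were 0.049 and 0.0502 for Mvk, -0.10 and -0.045 for Mvd, 0.16 and 0.13 for Lss, 0.18 and 0.18 for Dhcr7, and -0.012 and -0.0502 for Scap. Tm7sf2 was 0.012 with cyclic loess, Mvd -0.017 with probe set means and Pmvk 0.011 with array weights. With arrays left out singly the ranges were -0.25 to 0.072 for Pmvk, -0.28 to 0.41 for Mvd, -0.41 to 0.11 for Lss, -0.17 to 0.039 for Tm7sf2, -0.58 to 0.092 for Sc5d, -0.25 to 0.016 for Dhcr7, -0.022 to 0.28 for Ggps1 and -0.025 to 0.22 for Nr1h3.

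With the replicate number as a block, 10 genes were called, and 6 members were lower and 0 higher at an unadjusted p under 0.05. The shares of all genes lower and higher were 4.97% and 5.99%. Deviations of arrays with the same number correlated at 0.184, -0.026 and 0.063. Taken from group means of 3 arrays, these values cannot show whether arrays with the same number share anything else. Not every array correlated best with its own number.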
